A study of Homo sapiens with 10 samples.

Results

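WNT9A encodes a secreted Wnt ligand, and its level was followed here together with 9 genes known as feedback components or targets of canonical Wnt signalling: AXIN1, AXIN2, NKD1, LEF1, TCF7, SP5, RNF43, ZNRF3 and DKK1. The 10 genes were taken by symbol from count tables of 58676 genes. WNT9A was chosen by its higher measured level in cells that overexpressed the kinases BRSK1 and BRSK2, so its values against the controls and between the kinases are given as a description with no test. The other 9 were chosen for their known place in the pathway, and the comparison asked whether a higher level of the ligand came with changes in them.

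RNA-seq was performed on HEK293T cells, an established human embryonic kidney line that carries the SV40 large T antigen. The cells overexpressed BRSK2 (3 libraries), BRSK1 (3 libraries) or the red fluorescent protein hcRED (2 libraries) for 24 hours, or were labelled Mock (2 libraries). All groups were the same cell line grown in the same medium, and no allele or other agent is named in the labels, which do not say how the proteins were introduced or what the Mock cells received. The labels also do not say whether replicates were separate cultures, so p-values measure the spread between these libraries only. BRSK1 and BRSK2 are related serine/threonine kinases of the AMPK family.

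The libraries held 16516116 to 24304302 counts. BRSK2 took 6.99% to 10.4% of the counts in the 3 BRSK2 libraries and at most 0.00990% in any other, and BRSK1 took 4.72% to 6.96% in the 3 BRSK1 libraries and at most 0.00287% elsewhere, so each kinase was high in the libraries labelled with it. All 6 HEK293 line genes examined were above 1 CPM in every group, and their summed level was 310 to 393 CPM over all libraries. Of the 4 hepatocyte markers 0 were above 1 CPM in any group mean, and of the 4 fibroblast markers 2 were, the collagen genes COL1A1 and COL3A1, at averages of 28.8 and 1.98 CPM.

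In canonical Wnt signalling a ligand brings a Frizzled receptor and an LRP5 or LRP6 co-receptor together, which inactivates the destruction complex built on the AXIN scaffolds. β-Catenin then accumulates and acts with TCF and LEF proteins at target genes. Several of those targets, among them AXIN2, NKD1, RNF43, ZNRF3, DKK1 and NOTUM, encode inhibitors of the same pathway, and AXIN2 is widely used as a readout of it. AXIN1 differs from AXIN2 in being expressed largely independently of the pathway.

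RefSeq promoter windows (GRCh38.p14) of 250 bases before the start were found for 7 of the 10 genes, 9 windows in all. They were searched on both strands for CTTTGA and CTTTGT, the core letters that TCF and LEF proteins recognise, which read TCAAAG and ACAAAG on the other strand. The windows of 3 genes are shown because they set the ligand's promoter beside those of a pair of its pathway's targets, with the matches in capitals. The WNT9A window lies at chr1:227947933-227948182 on the minus strand, the SP5 window at chr2:170715087-170715336 on the plus strand and the DKK1 window at chr10:52314031-52314280 on the plus strand.
WNT9A: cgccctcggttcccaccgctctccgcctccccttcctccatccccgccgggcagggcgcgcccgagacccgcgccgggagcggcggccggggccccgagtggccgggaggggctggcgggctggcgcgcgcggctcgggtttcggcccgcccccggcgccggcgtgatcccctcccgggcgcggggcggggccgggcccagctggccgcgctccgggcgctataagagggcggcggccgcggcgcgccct
SP5: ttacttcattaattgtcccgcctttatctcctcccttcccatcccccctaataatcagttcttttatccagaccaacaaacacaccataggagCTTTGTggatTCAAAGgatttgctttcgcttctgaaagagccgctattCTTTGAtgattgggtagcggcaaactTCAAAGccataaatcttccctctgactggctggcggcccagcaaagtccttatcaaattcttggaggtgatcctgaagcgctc
DKK1: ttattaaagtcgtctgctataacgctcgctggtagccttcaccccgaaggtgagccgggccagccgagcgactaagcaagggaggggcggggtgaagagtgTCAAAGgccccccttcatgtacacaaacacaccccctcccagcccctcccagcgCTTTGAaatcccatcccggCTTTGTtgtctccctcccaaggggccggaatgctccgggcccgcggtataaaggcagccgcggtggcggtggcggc

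The WNT9A window held 0 matches. The SP5 window held 4, beginning 157, 147, 109 and 83 bases before the start, and the DKK1 window held 3, beginning 149, 95 and 76 bases before it. No match overlapped another. One of the pair of TCF7 windows held 2 matches, each of the pair of RNF43 windows held 1, and the LEF1 and AXIN1 windows held 0. Of 35116 windows of this length, 22.8% held at least 1 match and 0.057% held at least 4. The WNT9A window was 84.4% G and C, a share reached by 0.592% of windows, against a median of 58.0%. A match describes the letters and is not a binding site, and a window without one says nothing of more distant sequence.

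WNT9A (ENSG00000143816, hg38 chromosome 1, 227918656 to 227947898, minus strand, protein coding) was highest with BRSK2, intermediate with BRSK1 and lowest in the controls. Levels are in CPM, the count of a gene relative to its library total after TMM scaling, which corrects for library composition. In the BRSK2 libraries WNT9A stood at 14.1, 14.1 and 17.5 CPM, from 258, 286 and 275 counts. In the BRSK1 libraries it stood at 7.86, 9.08 and 10.3 CPM, from 166, 205 and 248 counts. The hcRED libraries gave 4.95 and 5.19 CPM and the Mock libraries 4.59 and 4.36 CPM, from 88 to 106 counts. Every BRSK2 library was above every BRSK1 library, and every BRSK1 library was above all 4 controls.

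Group means of WNT9A were 15.2 ± 1.96 CPM with BRSK2 (SD, n = 3), 9.08 ± 1.22 with BRSK1 (SD, n = 3), 5.07 ± 0.172 with hcRED (SD, n = 2) and 4.48 ± 0.167 in Mock (SD, n = 2). Against the averaged control groups (hcRED and Mock weighted equally), the fitted difference was 1.67 ± 0.13 (log2, SE) with BRSK2, a 3.19-fold higher level with a 95% interval of 2.63 to 3.86. With BRSK1 it was 0.93 ± 0.14 (log2, SE), a 1.91-fold higher level with an interval of 1.57 to 2.32. BRSK2 libraries were 1.67-fold above BRSK1 libraries, with an interval of 1.37 to 2.03. Because WNT9A was chosen by its higher level with the kinases, these intervals are descriptive and cannot serve as a test. That choice can also make the differences too large. The authors' deposited tables list WNT9A at log2 fold changes of 1.66 with BRSK2 and 0.93 with BRSK1. These tables hold only 723 genes for BRSK2 and 879 for BRSK1. None of the other 9 genes is among them, which with lists this short says little about those 9. Between hcRED and Mock, which did not enter the choice of WNT9A, the log2 difference was 0.18 ± 0.19 (SE), which did not pass the test (edgeR quasi-likelihood, adjusted p = 0.833).

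**Figure D1:**
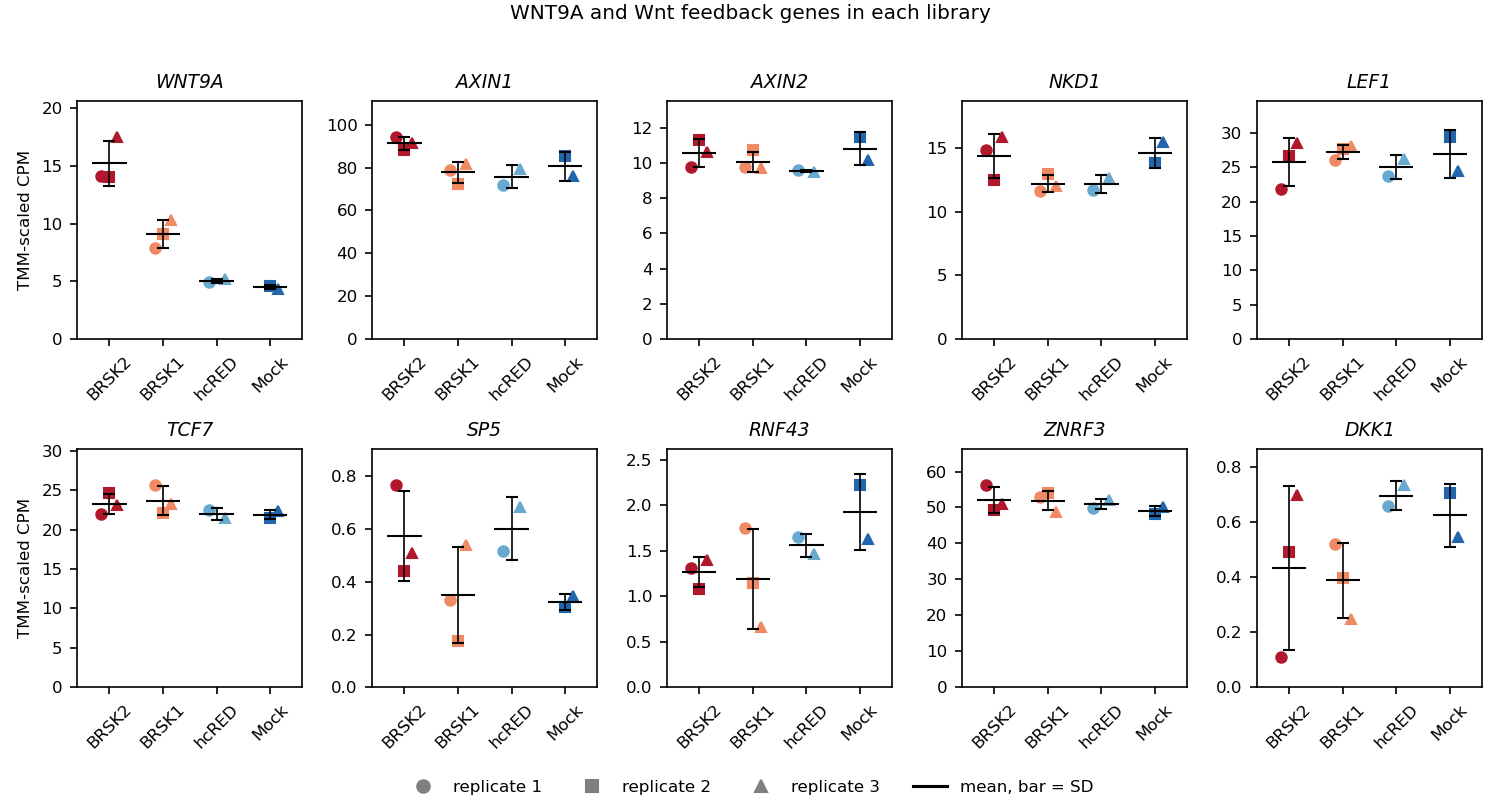
Level of each of the 10 genes (TMM-scaled CPM, vertical axes starting at 0) in every library, by group, with the replicate number as the marker shape and the group mean and SD as lines. WNT9A separates into BRSK2 (14.1 to 17.5), BRSK1 (7.86 to 10.3) and controls (4.36 to 5.19). The ranges of BRSK2, BRSK1 and the pooled controls overlap for AXIN2, NKD1, LEF1, TCF7, SP5 and ZNRF3. Among these genes, hcRED and Mock do not overlap for AXIN2, NKD1 and SP5. Of 98 other tested Wnt pathway genes, hcRED lay wholly above Mock for 15 and wholly below for 21. The share over all genes was not taken.

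The median difference of the 9 feedback genes lay near that of all tested genes with both kinases. As to calls, 9 genes are too few to tell 1 or 0 from the shares over all genes. All 9 passed the filter on low counts. With BRSK2, 1 of 9 (AXIN1) was higher at an adjusted p under 0.05 and 0 were lower, against 7.82% of all 16936 tested genes called in either direction, 4.77% called higher and 3.05% called lower. With BRSK1, 0 of 9 were called by edgeR, against 6.43% of all genes, 3.77% called higher and 2.66% called lower. None of the 9 reached an unadjusted p under 0.05 with BRSK1, for which the share over all genes was not taken. Limma-voom also called 0, as did DESeq2, which gave an adjusted p for 6 of the 9. The median log2 difference of the 9 was 0.06 with BRSK2 and -0.01 with BRSK1, beside 0.00 over all tested genes in both comparisons. Both comparisons use the same 4 control libraries.

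Among the intracellular inhibitors, AXIN2 (ENSG00000168646, chromosome 17, 65528563 to 65561647, minus strand), the scaffold induced by the pathway, is the most direct readout on the list. Its levels were 9.75, 11.3 and 10.6 CPM with BRSK2, 9.75, 10.7 and 9.71 with BRSK1, 9.56 and 9.50 with hcRED and 11.5 and 10.1 in Mock. The ranges of BRSK2, BRSK1 and the pooled controls overlapped, and the highest library was a Mock one. Both hcRED libraries lay below every other library, so the control groups did not overlap. The share of all genes with hcRED below Mock was not taken, but 21 of 98 other tested Wnt pathway genes showed that order. Between hcRED and Mock the log2 difference was -0.18 (edgeR adjusted p = 0.769). The log2 difference was 0.06 ± 0.12 (SE, adjusted p = 0.822 by edgeR) with BRSK2 and -0.01 ± 0.12 (SE, adjusted p = 0.970) with BRSK1. In fold terms the 95% intervals ran from 0.881 to 1.23 with BRSK2 and from 0.840 to 1.17 with BRSK1. At a mean of 10.3 CPM AXIN2 had about as many counts per library as WNT9A, with a mean of 9.20 CPM.

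AXIN1 (ENSG00000103126, chromosome 16, 287440 to 352673, minus strand) encodes the constitutive scaffold of the destruction complex. It was the 1 gene of the 9 called with BRSK2, or 11.1% beside 7.82% of all tested genes. Its expression is known as largely independent of the pathway, and whether the call reflects signalling was not tested. It stood at 94.3, 88.0 and 91.6 CPM with BRSK2, 79.1, 72.5 and 81.6 with BRSK1, 71.9 and 79.6 with hcRED and 85.2 and 75.9 in Mock. All 3 BRSK2 libraries were above the controls, as for 9.09% of tested genes, and above the BRSK1 libraries, as for 8.65%, while BRSK1 and controls overlapped. AXIN1 rose by 0.23 ± 0.07 (log2, SE) with BRSK2, which is 1.17-fold with a 95% interval of 1.06 to 1.28 (edgeR adjusted p = 0.0368). With BRSK1 its difference was -0.01 ± 0.07 (SE, adjusted p = 0.974), and the difference between the kinases, 0.23 ± 0.07 (SE), did not pass the test (adjusted p = 0.155). The AXIN1 call was lost in 8 of 21 alternative settings: with library totals as the only scaling (0.12, adjusted p = 0.240), against hcRED alone (adjusted p = 0.0573) or Mock alone (adjusted p = 0.183), and without BRSK2 replicate 1 (adjusted p = 0.0623), 2 (0.0611) or 3 (0.144), hcRED replicate 1 (0.165) or Mock replicate 3 (0.141).

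NKD1 (ENSG00000140807, chromosome 16, 50548330 to 50640739, plus strand) binds Dishevelled and dampens signalling. It stood at 14.8, 12.4 and 15.8 CPM with BRSK2, 11.6, 12.9 and 12.0 with BRSK1, 11.7 and 12.6 with hcRED and 13.8 and 15.4 in Mock. The ranges of BRSK2, BRSK1 and the pooled controls overlapped, but all hcRED and BRSK1 libraries lay below both Mock libraries. The share of all genes so arranged was not taken, and hcRED lay below Mock for 21 of 98 other tested Wnt pathway genes. The log2 difference of -0.27 between hcRED and Mock (adjusted p = 0.599) was no smaller in size than that between the kinases (0.23, adjusted p = 0.431). Its log2 difference was 0.10 ± 0.11 (SE, adjusted p = 0.631) with BRSK2 and -0.13 ± 0.11 (SE, adjusted p = 0.536) with BRSK1.

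ZNRF3 (ENSG00000183579, chromosome 22, 28883592 to 29057487, plus strand) and RNF43 (ENSG00000108375, chromosome 17, 58352500 to 58417595, minus strand) are membrane ubiquitin ligases that clear Frizzled from the cell surface. ZNRF3 stood at 56.2, 49.2 and 51.1 CPM with BRSK2, 52.8, 54.0 and 48.9 with BRSK1, 49.9 and 52.0 with hcRED and 48.1 and 50.1 in Mock. Its intervals were 0.944 to 1.15-fold with BRSK2 and 0.940 to 1.15-fold with BRSK1 (adjusted p = 0.654 and 0.702). RNF43 was low, at 1.31, 1.08 and 1.40 CPM with BRSK2, 1.75, 1.15 and 0.664 with BRSK1, 1.65 and 1.47 with hcRED and 2.22 and 1.63 in Mock. All 3 BRSK2 libraries lay below the 4 controls, an arrangement that 8.20% of all tested genes showed in that comparison. The log2 differences of RNF43 were -0.46 ± 0.32 (SE, adjusted p = 0.419) and -0.55 ± 0.31 (SE, adjusted p = 0.309), on 16 to 44 counts per library.

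The secreted inhibitor DKK1 (ENSG00000107984, chromosome 10, 52314296 to 52318042, plus strand), which blocks LRP5 and LRP6, was at the edge of detection. Its levels were 0.110, 0.492 and 0.700 CPM with BRSK2, 0.521, 0.398 and 0.249 with BRSK1, 0.660 and 0.734 with hcRED and 0.707 and 0.545 in Mock, from 2 to 15 counts. The BRSK1 libraries all lay below the controls, which 8.44% of tested genes did. The 95% intervals, 0.305 to 1.39-fold with BRSK2 and 0.280 to 1.24-fold with BRSK1, show that a rise of the size seen for WNT9A with either kinase lay outside them, but smaller changes were not detectable at this depth (adjusted p = 0.526 and 0.411).

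LEF1 and TCF7 encode the transcription factors that carry β-catenin to its targets, and both are targets themselves. LEF1 (ENSG00000138795, chromosome 4, 108047545 to 108168956, minus strand) stood at 21.9, 26.7 and 28.6 CPM with BRSK2, 26.1, 27.7 and 28.1 with BRSK1, 23.8 and 26.2 with hcRED and 29.4 and 24.5 in Mock. TCF7 (ENSG00000081059, chromosome 5, 134114711 to 134151865, plus strand) stood at 22.0, 24.6 and 23.2 CPM with BRSK2, 25.7, 22.1 and 23.3 with BRSK1, 22.6 and 21.5 with hcRED and 21.6 and 22.3 in Mock. The groups overlapped for both genes. The 95% intervals of LEF1 were 0.863 to 1.13-fold with BRSK2 and 0.920 to 1.20-fold with BRSK1, and those of TCF7 were 0.935 to 1.20-fold and 0.953 to 1.22-fold, with adjusted p between 0.501 and 0.949. The 3′ end of TCF7 overlaps SKP1 on the opposite strand (583 to 1079 counts), and the start of LEF1 overlaps LEF1-AS1 (1 to 18 counts). The strand setting of the counting is not given in the sources used here, so reads in those stretches are uncertain.

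SP5 (ENSG00000204335, chromosome 2, 170715351 to 170718078, plus strand), a transcription factor gene that responds directly to the pathway in many cells and whose promoter window held 4 matches, had 4 to 14 counts per library. Its levels were 0.767, 0.443 and 0.509 CPM with BRSK2, 0.331, 0.177 and 0.540 with BRSK1, 0.518 and 0.686 with hcRED and 0.303 and 0.347 in Mock. The groups overlapped. Intervals of 0.624 to 2.66-fold with BRSK2 and 0.375 to 1.70-fold with BRSK1 leave a change of moderate size undetectable at this depth (adjusted p = 0.724 and 0.771).

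**Figure D2:**
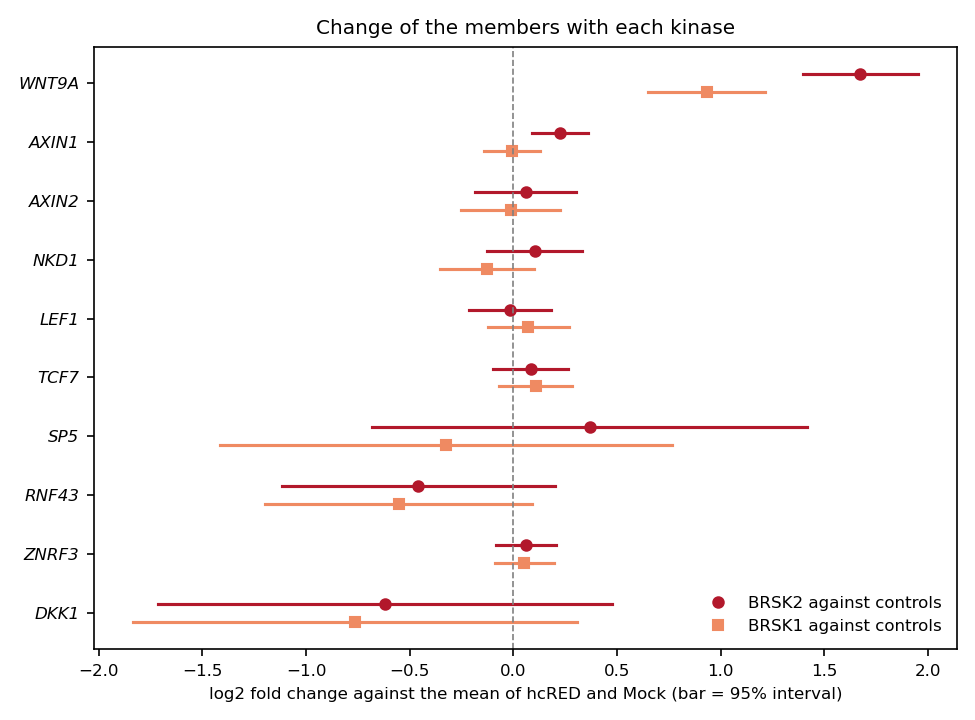
Fitted log2 difference of each gene from the mean of hcRED and Mock (horizontal axis, bars are 95% intervals), for BRSK2 (circles) and BRSK1 (squares). WNT9A lies at 1.67 and 0.93, and its intervals are descriptive because it was chosen by its rise. AXIN1 alone among the other 9 has an interval above 0 (BRSK2, 0.09 to 0.36), and the widest intervals belong to SP5, RNF43 and DKK1.

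Between the kinases 0 of the 9 feedback genes were called by edgeR, against 0.348% of all tested genes. AXIN1 reached an unadjusted p under 0.05. Limma-voom called 0, as did DESeq2, which gave an adjusted p for 6 of the 9. Between hcRED and Mock 0 of 9 were called, against 0.0295% of all genes. There were also 0 at an unadjusted p under 0.05. Limma-voom called 0, as did DESeq2, which gave an adjusted p for 5 of the 9. At shares over all genes as small as these, 0 calls among 9 genes say nothing about them. Over the 10 libraries, log2 CPM of WNT9A had a Pearson correlation of 0.67 with AXIN1, 0.18 with AXIN2, 0.20 with NKD1, 0.34 with ZNRF3, 0.05 with LEF1, 0.40 with TCF7, 0.24 with SP5, -0.48 with DKK1 and -0.55 with RNF43. These values describe libraries that share their groups, and with the group means removed they were 0.26 with AXIN1, 0.10 with AXIN2, 0.47 with NKD1, -0.41 with ZNRF3, 0.61 with LEF1, -0.45 with TCF7, 0.19 with SP5, 0.16 with DKK1 and -0.51 with RNF43. The sign differed between the sets of values for ZNRF3, TCF7 and DKK1.

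Per kilobase of gene length, WNT9A moved up the order of the 12 Wnt ligand genes that passed the filter. It ranked 6 in Mock, at 1.13 ± 0.0421 CPM per kb (SD, n = 2), and 6 in hcRED, at 1.28 ± 0.0433 (SD, n = 2). It ranked 4 with BRSK1, at 2.29 ± 0.306 (SD, n = 3), where its range overlapped those of WNT11 above it and WNT3 below it. With BRSK2 it ranked 2, at 3.84 ± 0.494 (SD, n = 3), below WNT5A at 5.56 ± 0.752 (SD, n = 3) and above WNT10B at 2.52 ± 0.282 (SD, n = 3), and its range met neither neighbour's. In Mock its range overlapped that of WNT8B, next below it. Of the summed level of 19 ligand genes, WNT9A made up 17.03%, 18.5% and 20.5% with BRSK2, 9.67%, 12.4% and 12.2% with BRSK1, 6.32% and 7.54% with hcRED and 6.05% and 5.63% in Mock.

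**Figure D3:**
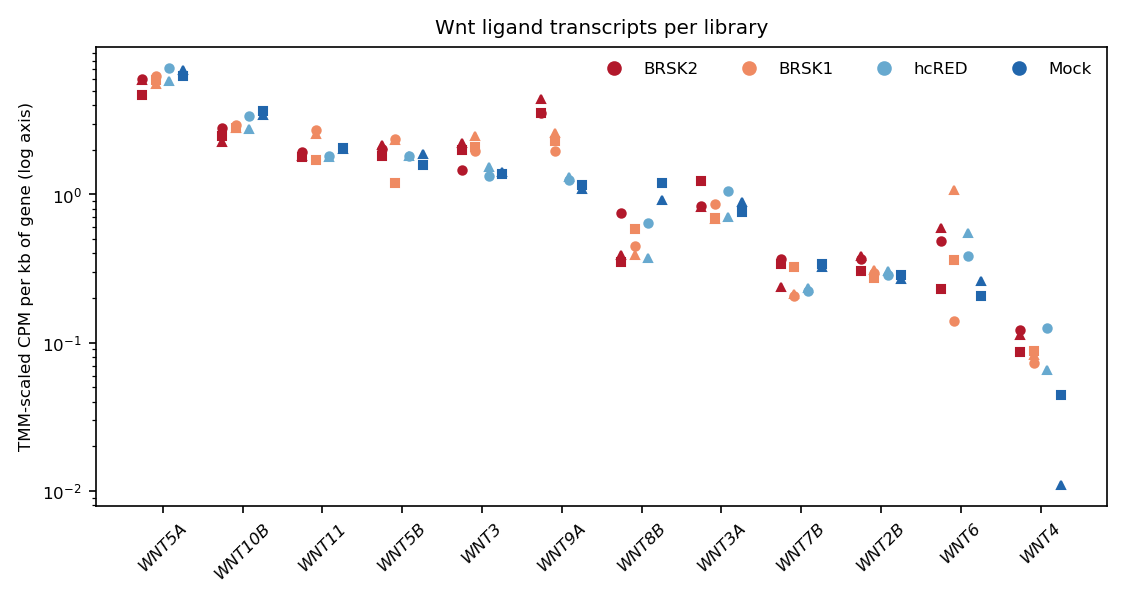
Level per kilobase (CPM per kb) of the Wnt ligand genes that passed the filter, by group, with a point for each library. WNT9A lies at 3.54 to 4.41 in the BRSK2 libraries, between WNT5A and WNT10B, and at 1.10 to 1.31 in the controls.

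Of the other 18 ligand genes, 11 were tested, and 0 were called with BRSK2 by edgeR, beside 7.82% of all tested genes. There were 3 at an unadjusted p under 0.05, for which the share over all genes was not taken. Limma-voom called 0, as did DESeq2, which gave an adjusted p for 9 of the 11. With BRSK1, 1 of 11 was called, or 9.09% beside 6.43% of all tested genes. This was WNT3, a canonical ligand, which rose by 0.62 ± 0.15 (log2, SE, edgeR adjusted p = 0.0142). WNT3 stood at 8.52, 9.08 and 10.7 CPM with BRSK1, 6.30, 8.71 and 9.61 with BRSK2, 5.80 and 6.66 with hcRED and 5.96 and 6.14 in Mock, so all BRSK1 libraries were above the controls, as for 9.93% of tested genes, and the BRSK2 libraries were not. Its BRSK2 difference was 0.42 ± 0.15 (SE, adjusted p = 0.0932), and the kinases did not differ beyond the test (adjusted p = 0.622). The WNT3 call with BRSK1 was lost against hcRED alone (adjusted p = 0.114), without BRSK1 replicate 3 (0.121) and without hcRED replicate 1 (0.0730). WNT9B, the closest relative of WNT9A, failed the filter.

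Among the secreted antagonists, NOTUM was higher with both kinases. NOTUM encodes a secreted enzyme that removes the lipid Wnt proteins need for receptor binding, and it is itself a known Wnt target. It stood at 2.25, 2.21 and 2.54 CPM with BRSK2, 1.66, 2.17 and 1.83 with BRSK1, 0.801 and 0.832 with hcRED and 1.36 and 0.594 in Mock, from 12 to 49 counts. All BRSK2 libraries were above all controls, as for 9.09% of tested genes, all BRSK1 libraries were above them, as for 9.93%, and BRSK2 libraries were above BRSK1 libraries, as for 8.65%. NOTUM rose by 1.38 ± 0.29 (log2, SE) with BRSK2, 2.60-fold with an interval of 1.71 to 3.93 (edgeR adjusted p = 0.00470), and by 1.07 ± 0.29 (log2, SE) with BRSK1, 2.10-fold with an interval of 1.39 to 3.19 (adjusted p = 0.0291). The kinases did not differ beyond the test (0.30 ± 0.29, SE, adjusted p = 0.722). The BRSK2 call held in all 21 alternatives, at an adjusted p of at most 0.0411. The BRSK1 call was lost in 7 of 20 that gave a value: against hcRED alone (adjusted p = 0.119) or Mock alone (0.108) and without BRSK1 replicate 2 (0.117) or 3 (0.104), hcRED replicate 1 (0.0961) or 3 (0.0666) or Mock replicate 3 (0.116). The other 7 antagonists tested, among them KREMEN1 and DKK3, were not called with either kinase. The share called was thus 12.5% with each kinase, beside 7.82% of all tested genes with BRSK2 and 6.43% with BRSK1.

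Of 26 further canonical targets, 20 were tested. With BRSK2, 3 were higher and 2 lower, or 25% beside 7.82% of all tested genes. With BRSK1 0 were called by edgeR, beside 6.43% of all genes. Limma-voom also called 0, as did DESeq2, which gave an adjusted p for 19 of the 20. At an unadjusted p under 0.05 there were 5 with BRSK1, for which the share over all genes was not taken. The median log2 difference was -0.02 with BRSK2 and -0.04 with BRSK1. The 3 higher genes were JUN and MYC, growth-related transcription factors that respond to many signals, and APCDD1, a membrane inhibitor of Wnt signalling, which is named after its values were seen. The lower genes were CCND1, a cyclin of the G1 phase, and EPHB3, an ephrin receptor of the intestinal crypt.

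JUN stood at 421, 488 and 493 CPM with BRSK2, above all controls (328 to 401), as for 9.09% of tested genes. It rose by 0.36 ± 0.07 (log2, SE, edgeR adjusted p = 0.00123). MYC stood at 96.0, 115 and 108 CPM with BRSK2, 73.0 and 56.7 with hcRED and 97.7 and 86.6 in Mock, and rose by 0.46 ± 0.08 (log2, SE, adjusted p = 0.00157). The MYC ranges of BRSK2 and the controls overlapped, and against Mock alone the difference was 0.21 (adjusted p = 0.222). APCDD1 stood at 4.49, 4.28 and 3.94 CPM with BRSK2, 3.74, 3.94 and 4.65 with BRSK1 and 2.45 to 3.13 in the controls. Kinase and control libraries did not overlap for APCDD1 (9.09% of tested genes lay above the controls in all BRSK2 libraries and 9.93% in all BRSK1 libraries), which rose by 0.64 ± 0.19 with BRSK2 (log2, SE, adjusted p = 0.0355) and was 0.60 ± 0.18 higher with BRSK1 (SE, adjusted p = 0.0509). The BRSK1 difference of APCDD1 was called with a filter of 1 CPM (adjusted p = 0.0468) and without BRSK2 replicate 1 (0.0403), and that of EPHB3 was called without BRSK1 replicate 1 (0.0150).

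CCND1 fell by 0.37 on the log2 scale with BRSK2 (SE 0.11, edgeR adjusted p = 0.0328), from 13.0 to 15.03 CPM in the controls to 11.4, 11.3 and 10.7 CPM. EPHB3 fell by 0.73 on the log2 scale (SE 0.21, adjusted p = 0.0326), from 4.997 to 5.30 CPM in the controls to 3.45, 2.51 and 3.37 CPM. For both the BRSK2 libraries lay below all 4 controls, as for 8.20% of tested genes. The calls of these 2 genes and APCDD1 were each lost against either control group alone and without single libraries. For APCDD1 those were BRSK2 replicates 1, 2 and 3 (adjusted p = 0.0649, 0.109 and 0.0954), hcRED replicates 1 and 3 (0.123 and 0.0627) and Mock replicate 3 (0.129). For CCND1 they were BRSK2 replicates 2 and 3 (adjusted p = 0.0971 and 0.154), hcRED replicate 1 (0.136) and Mock replicates 2 and 3 (0.0590 and 0.0751). For EPHB3 they were BRSK2 replicates 2 and 3 (adjusted p = 0.181 and 0.0980), hcRED replicates 1 and 3 (0.0769 and 0.0789) and Mock replicate 3 (0.0812). LGR5 was not called with either kinase (adjusted p = 0.628 and 0.677).

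**Figure D4:**
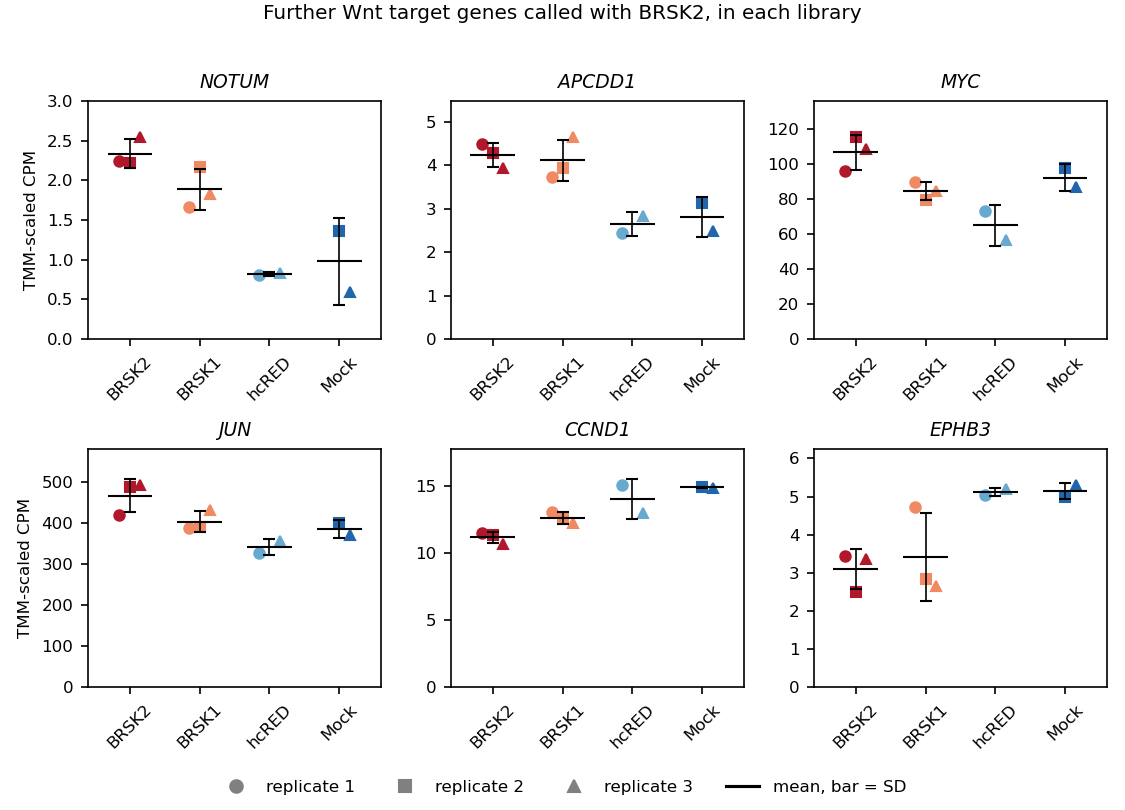
Level (TMM-scaled CPM, vertical axes starting at 0) of 6 further Wnt targets in every library, by group, with replicate numbers as marker shapes and the mean and SD as lines. NOTUM and APCDD1 are higher in all kinase libraries than in all controls, and CCND1 and EPHB3 are lower in the BRSK2 libraries than in the controls.

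In the receiving machinery, 0 of 15 receptors and co-receptors were called with either kinase by edgeR. Over all tested genes 7.82% were called with BRSK2 and 6.43% with BRSK1, and 15 genes are too few to tell 0 calls from those shares. At an unadjusted p under 0.05 there were 5 and 3, for which the share over all genes was not taken. DESeq2 and limma-voom called 0. LRP5, the most abundant by CPM, had log2 differences of 0.15 ± 0.06 (SE, adjusted p = 0.124) with BRSK2 and 0.01 ± 0.06 (SE, adjusted p = 0.973) with BRSK1. The Wnt acyltransferase gene PORCN and the Wnt carrier gene WLS, both needed to secrete a Wnt protein, were expressed at means of 14.2 and 152 CPM and were not called. The R-spondin receptor genes LGR4 and LGR5 were expressed and not called, and RSPO1 to RSPO4, whose proteins protect Frizzled from ZNRF3 and RNF43, failed the filter.

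Inside the cell, DVL1 and DVL2, which encode the Dishevelled adaptors that pass the signal from Frizzled to the destruction complex, were the 2 genes of 17 called with BRSK2, or 11.8% beside 7.82% of all tested genes, and with BRSK1 3 of 17 were called, or 17.6% beside 6.43%. DVL2 stood at 155, 177 and 174 CPM with BRSK2, above all controls (124 to 137), as for 9.09% of tested genes. It rose by 0.36 ± 0.06 (log2, SE, edgeR adjusted p = 0.000468). DVL1 rose by 0.28 ± 0.06 (log2, SE, adjusted p = 0.00323), a call lost against Mock alone (adjusted p = 0.0728). With BRSK1, DVL2 rose by 0.21 ± 0.06 (log2, SE, adjusted p = 0.0292), while the destruction complex genes AMER1 and APC fell by 0.40 and 0.29 on the log2 scale (adjusted p = 0.0112 and 0.0222). These 3 BRSK1 calls were lost in 9, 4 and 6 of 21 alternatives, among them hcRED alone (adjusted p = 0.0804, 0.149 and 0.153). All 3 were lost without BRSK1 replicate 2 (adjusted p = 0.0812, 0.0509 and 0.0749), BRSK1 replicate 3 (0.103, 0.0994 and 0.129) or hcRED replicate 1 (0.0714, 0.0702 and 0.0697). DVL2 and APC were also lost without hcRED replicate 3 (0.106 and 0.0614) or Mock replicate 3 (0.0831 and 0.0830), and DVL2 without BRSK1 replicate 1 (0.0775), against Mock alone (0.140) and with library totals (0.0748).

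Of 12 nuclear effectors, 2 were lower and 0 higher with BRSK2, or 16.7% called beside 7.82% of all tested genes (3.05% lower), and 3 were lower and 0 higher with BRSK1, or 25% beside 6.43% (2.66% lower). BCL9, a co-activator that links β-catenin to the PYGO proteins, fell by 0.36 on the log2 scale with BRSK2 (SE 0.07, edgeR adjusted p = 0.00306) and by 0.32 with BRSK1 (SE 0.07, adjusted p = 0.00970). It stood at 61.7, 52.6 and 52.3 CPM with BRSK2, 58.6, 53.1 and 59.4 with BRSK1 and 66.0 to 74.3 in the controls. The kinase libraries lay below all controls, as for 8.20% of tested genes with BRSK2 and 8.44% with BRSK1. AES, a short relative of the Groucho co-repressors, also fell with BRSK2 (by 0.27, adjusted p = 0.0132), and PYGO2 and BCL9L fell with BRSK1 (by 0.33 and 0.36, adjusted p = 0.00450 and 0.0352). The PYGO2 call held in all 21 alternatives, and the BCL9L call was lost in 8: against either control alone (adjusted p = 0.134 and 0.0878), without BRSK1 replicate 1, 2 or 3 (0.0862, 0.171 and 0.0552), without hcRED replicate 1 or 3 (0.131 and 0.0529) and without Mock replicate 2 (0.0904). The BRSK1 call of BCL9 was lost against Mock alone (adjusted p = 0.0530) and without BRSK1 replicate 2 (0.0637). The BRSK2 call of AES was lost against hcRED alone (adjusted p = 0.0692) and without BRSK2 replicate 3 (0.0948) or hcRED replicate 1 (0.0671).

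Across all pathway lists, 98 of 122 genes were tested. With BRSK2, 7 were higher and 4 lower, or 11.2% beside 7.82% of all tested genes, and with BRSK1 3 were higher and 6 lower, or 9.18% beside 6.43%. Between the kinases edgeR called 1, CELSR3, beside 0.348% of all genes, limma-voom called 1, and DESeq2 called 3, CELSR3, DVL1 (adjusted p = 0.0175) and MYC (0.0383). Between hcRED and Mock 0 were called by edgeR and by limma-voom, and DESeq2 called 1, MYC (adjusted p = 0.0116). At an unadjusted p under 0.05 edgeR gave 8, for which the share over all genes was not taken. Scaling by library totals alone, which moved the median of all genes to -0.10 with BRSK2, gave 7 higher and 26 lower for that comparison, beside 494 higher and 2507 lower over all genes.

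**Figure D5:**
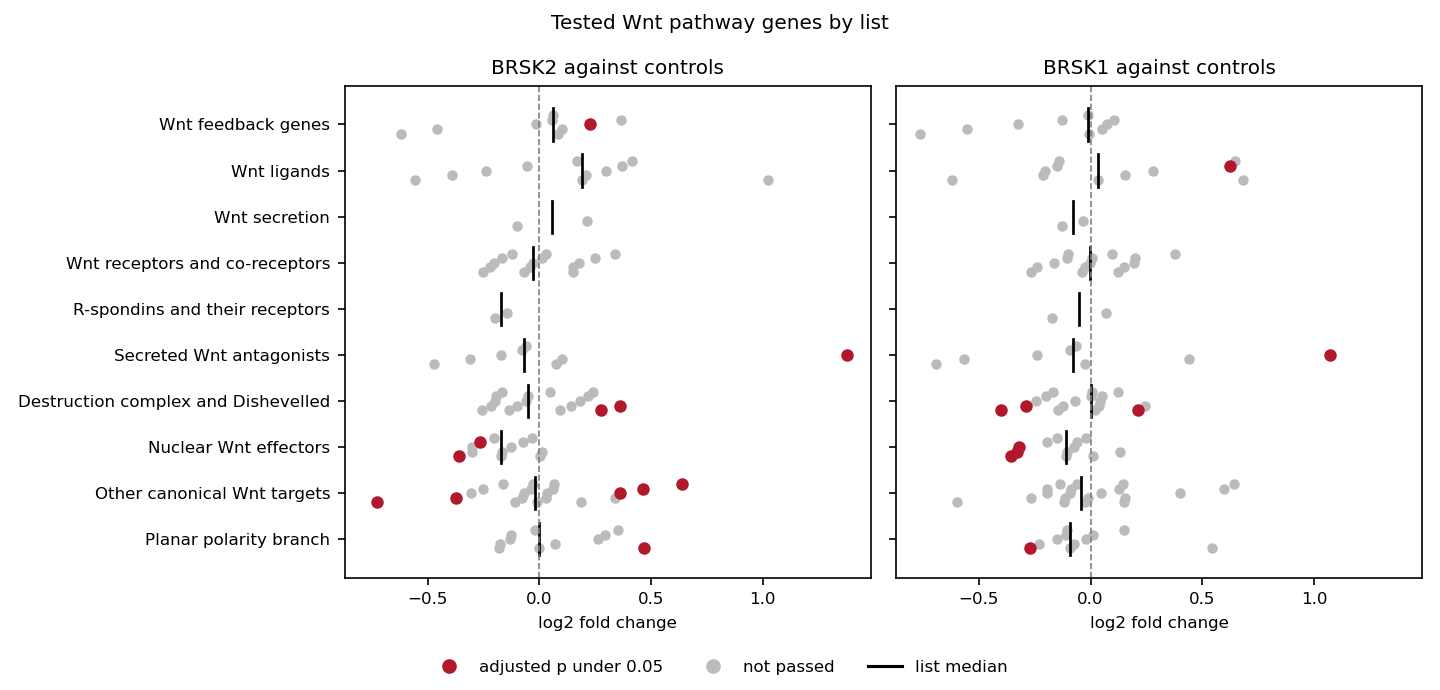
Fitted log2 differences from the controls of every tested gene in each Wnt pathway list, for BRSK2 and BRSK1, with called genes marked. Most genes lie near 0, and NOTUM is the largest called difference outside WNT9A, at 1.38 and 1.07.

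The genes whose log2 CPM followed WNT9A most closely over the 10 libraries, among 11078 tested genes with a mean of at least 5 CPM, were ZNF282 (Pearson 0.99), GRAMD1A (0.98), ZNF581 (0.98), POLR3D (0.98) and SLC13A3 (0.98). None of them is on a Wnt list, but those lists hold few of the candidates (98 genes tested beside the members). Their absence from the top 5 therefore says little. With group means removed, the same correlations were 0.84, 0.79, 0.75, 0.69 and 0.66. ZNF282 had group means of 241 CPM with BRSK2, 204 with BRSK1, 170 with hcRED and 174 in Mock. Candidates were ranked on the libraries that define the pattern, and the libraries share their groups, so the values are a description.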

How the data were processed

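RNA-seq gene counts from 10 HEK293T libraries were analysed. The authors deposited raw read counts per gene. STAR, limma, edgeR and hg38 appear in the submitters' processing notes. For the counting options, strandedness and annotation, no source used here gives a value. The authors also deposited log2 CPM values, which were used for a check only, and tables of log2 fold changes with a p-value and an adjusted p-value per gene, together with other test scores per the file headers. The 4 control libraries are in both count tables with identical counts.

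The counts of 58676 genes were fitted with edgeR 4.0.16 (R 4.3.3): TMM scaling, a low-count filter (filterByExpr, min.count 10, min.total.count 15) and the robust quasi-likelihood F test in 1 model with 4 group means. Each kinase was compared with the averaged controls. P-values were adjusted by Benjamini-Hochberg over 16936 tested genes, and called means an adjusted p under 0.05. SE is the log2 difference divided by the square root of F. Intervals are 95% and cover the spread between these libraries. The biological coefficient of variation was 8.06%. The fit was tested on simulated data.

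The genes and lists were chosen with earlier results of these data known. Named genes are the 10 members, the called genes of each list (up to 4 by p, otherwise up to 3 by level), the 5 closest correlates of WNT9A, its neighbours in the order of ligand levels and the 3 nearest tested genes on each side. Alternatives were other scalings and filters, DESeq2 1.42.0, limma-voom (limma 3.58.1), a replicate block, each library left out and either control alone. DESeq2 gave no adjusted p for some listed genes, which it therefore could not call. Blood cell markers are not reported here.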

Additional observations from a re-analysis of the deposited data

Results flagged for a closer look

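CELSR3, a cadherin receptor of the planar polarity branch of Wnt signalling, differed between the kinases by edgeR's test of the difference itself, which called no other gene of the Wnt lists. DESeq2 also called DVL1 (adjusted p = 0.0175) and MYC (0.0383). It stood at 85.5, 85.7 and 88.2 CPM with BRSK2, 69.0, 68.3 and 70.9 with BRSK1, 59.7 and 62.3 with hcRED and 61.3 and 66.7 in Mock. The difference between BRSK2 and BRSK1 was 0.32 ± 0.06 (log2, SE, edgeR adjusted p = 0.0350), with every BRSK2 library above every BRSK1 library, an order that 8.65% of tested genes showed. The call was lost in 8 of 19 alternatives: with library totals (adjusted p = 0.0628), without BRSK2 replicate 2 (0.0977) or 3 (0.132), without BRSK1 replicate 1 (0.130), 2 (0.122) or 3 (0.101) and without hcRED replicate 1 (0.0567) or 3 (0.0555). Against the controls CELSR3 rose by 0.47 ± 0.06 (log2, SE, adjusted p = 3.95e-05) with BRSK2 and was 0.15 ± 0.06 higher with BRSK1 (SE, adjusted p = 0.140).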

How the results depend on the processing

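WNT9A kept its direction in all alternatives run, at 1.56 to 1.76 (log2) with BRSK2, 0.83 to 1.02 with BRSK1 and 0.63 to 0.84 between the kinases. Called feedback genes with BRSK2, 1 as reported, were 0 with library totals, with hcRED alone and with Mock alone, and 0 to 1 with each library left out. For the feedback genes the count stayed at 0 in the other 3 comparisons under every alternative run. Called pathway genes with BRSK2 (11) were 33 with library totals, 23 with the replicate block, 7 against hcRED alone, 6 against Mock alone and 7 to 26 with each library left out. With BRSK1 (9) they were 20 with the block, 2 against hcRED alone, 5 against Mock alone and 2 to 16 with each library left out. Between the kinases (1) they were 0 with library totals, 2 with no filter, 3 with DESeq2, 3 with the block and 0 to 3 with each library left out. Between hcRED and Mock (0) they were 1 with no filter, 1 with DESeq2, 4 with the block and 0 to 1 with each library left out.

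Over all genes, calls with BRSK2 (1325) were 3001 with library totals, 2153 with the block, 606 against hcRED alone and 346 to 2211 with each library left out. With BRSK1 (1089) they were 1999 with the block, 133 against hcRED alone and 204 to 1751 with each library left out. Between the kinases (59) they were 206 with library totals, 188 with no filter, 161 with DESeq2, 267 with the block and 7 to 64 with each library left out. Between hcRED and Mock (5) they were 128 with no filter, 3 with a filter of 1 CPM, 54 with DESeq2, 2 with limma-voom, 434 with the block and 0 to 49 with each library left out. Leaving out a library leaves fewer samples, and the cause of the other shifts was not tested. With library totals the BRSK2 differences of AXIN2, NKD1, TCF7 and ZNRF3 went to -0.05, 0.00, -0.02 and -0.04, none called.

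Replicate numbers are shared across groups, and 2 of 12 same-numbered pairs had deviations correlated above 0.1. Their range was -0.05 to 0.16, against -0.14 to 0.10 for other pairs, and 6 of 10 libraries were closest to their own number. These values do not settle whether same-numbered libraries were paired. The main fit used no pairing, and the replicate block, run as an alternative, gave more calls over all genes in every comparison. The block called APCDD1, JUN and EPHB3 with BRSK1 (adjusted p = 0.0358, 0.0363 and 0.0278) and DVL1 and MYC between the kinases (0.0214 and 0.0492). Depth limits SP5, DKK1 and RNF43 most.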

Other observations

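The 3 nearest tested genes on each side of WNT9A on chromosome 1 were not called with either kinase. Over all tested genes 7.82% were called with BRSK2 and 6.43% with BRSK1. So few neighbours are not enough to tell an absence of calls from those shares. WNT3A, a canonical ligand gene whose start lies 59.2 kb from WNT9A, had log2 differences of 0.19 with BRSK2 and -0.20 with BRSK1. ARF1 and C1orf35, beyond WNT3A, had 0.04 and 0.14 with BRSK2 and 0.04 and 0.12 with BRSK1. On the other side, SNAP47, JMJD4 and ZNF678, at 137 to 241 kb, had -0.10, -0.03 and -0.13 with BRSK2 and -0.01, -0.22 and 0.07 with BRSK1.

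In the planar polarity branch, which orients cells through cadherin receptors without β-catenin, 11 genes were tested. CELSR3 was the 1 gene called with BRSK2, or 9.09% beside 7.82% of all tested genes. With BRSK1 the share called was also 9.09%, beside 6.43%. CELSR2, a related receptor, was the 1 gene called with BRSK1, where it fell by 0.27 on the log2 scale (SE 0.08, edgeR adjusted p = 0.0459), a call lost in 8 of 21 alternatives: limma-voom (adjusted p = 0.0544), hcRED alone (0.469) and without BRSK2 replicate 3 (0.0551), BRSK1 replicate 2 (0.212) or 3 (0.123), hcRED replicate 1 (0.159) or 3 (0.0752) or Mock replicate 3 (0.162).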
